A study of Homo sapiens with 9 samples.

Results

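The genes described here are 10 lineage and marker genes of ovarian carcinoma: PAX8, WT1, SOX17, MECOM, MUC16, MUC1, WFDC2, MSLN, FOLR1 and EPCAM. They were taken by gene name from the 58735 genes counted by RNA-seq in 9 libraries of OVCAR4 cells, an established human cell line labelled as ovarian serous adenocarcinoma. All 10 were found, and 9 of them were among the 16928 genes that passed the filter on low counts. WT1 did not pass. The libraries form 3 groups of 3 biological replicates on a wild-type background. All groups were transduced with lentivirus and selected with puromycin for 3 days: scr control cells received a scramble shRNA, and the others received shMPZL3 #1 or shMPZL3 #2 against MPZL3, a predicted cell adhesion molecule. The source is 1 cell line, and no picking of clones is described.

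PAX8, SOX17, MECOM and WT1 encode transcription factors. PAX8 and SOX17 act in the Mullerian duct, which gives rise to the fallopian tube, the proposed tissue of origin of high-grade serous carcinoma, and both are retained in that tumor. MECOM encodes the zinc-finger factor EVI1 and lies in a region that is often amplified in ovarian cancer, and WT1 is a nuclear marker that pathologists use for serous carcinoma. The other members encode proteins of the cell surface or secreted proteins. MUC16 and MUC1 are membrane mucins whose shed ectodomains are measured as CA125 and CA15-3. WFDC2 encodes HE4, a secreted protein with WAP domains and a serum marker of ovarian cancer. MSLN encodes mesothelin, a surface protein that binds MUC16. FOLR1 encodes folate receptor alpha, a target of antibody-drug conjugates. EPCAM encodes an epithelial adhesion molecule.

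With MPZL3 knockdown, MUC1 and WFDC2 rose more than 2-fold, FOLR1 fell to 0.601 of its control level and MECOM to 0.742. These genes changed in the same direction with each shRNA. SOX17, EPCAM and MSLN did not pass the test in any comparison. MUC16 was lower and PAX8 higher by the test with shMPZL3 #1 only, and the difference between the shRNAs was not significant for either gene by the same test. WT1 was barely detected in any library.

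The 250 bases before the annotated start of MUC1 and WFDC2 are shown because these genes rose the most among the members. The sequences are from RefSeq on GRCh38.p14, written 5′ to 3′ on the strand of the gene. Capitals mark matches to the TATA box TATAAA and to the E-box CACCTG. For MUC1 the more upstream of the 2 RefSeq starts was used. The MUC1 window is chr1:155192916-155193165 on the minus strand, and the WFDC2 window is chr20:45469503-45469752 on the plus strand.

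MUC1: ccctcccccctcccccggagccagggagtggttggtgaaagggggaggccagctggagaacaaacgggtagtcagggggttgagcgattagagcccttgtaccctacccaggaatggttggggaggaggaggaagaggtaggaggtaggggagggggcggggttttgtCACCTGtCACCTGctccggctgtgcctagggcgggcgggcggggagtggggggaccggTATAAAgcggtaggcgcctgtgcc

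WFDC2: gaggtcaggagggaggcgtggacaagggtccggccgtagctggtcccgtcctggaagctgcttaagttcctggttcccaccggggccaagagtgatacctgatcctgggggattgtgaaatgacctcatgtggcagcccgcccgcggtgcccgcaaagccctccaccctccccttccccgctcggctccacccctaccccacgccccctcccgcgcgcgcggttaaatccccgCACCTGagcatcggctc

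Both strands of both windows were searched for 5 motifs. The MUC1 window held the TATA box 24 bases before the start and the E-box at 82 and 75 bases before it. The WFDC2 window held the E-box 17 bases before the start and no match to TATAAA. WFDC2 as counted in these data begins upstream of that RefSeq start, at 45469706, so this E-box lies inside the counted gene. Of 35116 RefSeq windows of the same length, 10.7% held TATAAA and 17.5% held CACCTG. The GC box GGGCGG, which 42.6% of all windows held, was found 4 times in the MUC1 window, with 3 of the matches overlapping each other, and once in the WFDC2 window. Neither window held the interferon-stimulated response element, found in 3.02% of all windows, or the GAS element TTCNNNGAA, found in 6.57%. These are matches of letters only, and binding was not measured. The RefSeq table held windows for PAX8, WT1, MECOM and MUC16 besides. The start sites it gives for MUC16 lie 29067 and 84409 bases beyond the end of the gene as counted in these data, so reads from exons outside the counted interval were not assigned to MUC16.

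Total counts per library ranged from 15040102 to 27835841. MPZL3, the targeted gene (ENSG00000160588), averaged 578 ± 38.5 normalized counts in the controls against 128 ± 12.9 (shMPZL3 #1) and 312 ± 59.5 (shMPZL3 #2; SD, n = 3 each), with the knockdown libraries below all controls. Counts were normalized by scaling every library to the average effective size. The knockdown was stronger with shMPZL3 #1 (log2 difference of shMPZL3 #2 minus shMPZL3 #1, 1.28 with SE 0.16; edgeR adjusted p = 5.72e-05). The libraries also differed in the balance of GC-rich and GC-poor genes. The mean log2 CPM of the 20% of genes richest in GC minus that of the 20% poorest in GC, each relative to the mean of all libraries, was -0.21 to -0.11 in scr control. With knockdown it was 0.14 to 0.30 in replicates 1 and 3 of each shRNA, but -0.25 and -0.23 in the replicates numbered 2. Values from a fit corrected for GC content and transcript length together, called the GC correction below, are therefore given for each tested member.

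In the scr control cells the members covered a wide range of expression. Levels between genes are compared as RPKM, which divides reads by the deposited gene length and the library size. EPCAM was highest with 160 ± 9.13 RPKM, above 98.8% of the 13651 protein-coding genes tested, and SOX17 followed with 108 ± 2.62 RPKM (SD, n = 3 here and for the next values). WFDC2 had 41.6 ± 2.06 RPKM, PAX8 30.5 ± 0.145, FOLR1 26.7 ± 0.759 and MECOM 18.1 ± 1.84. MUC16 had 8.56 ± 0.907 RPKM and MUC1 3.37 ± 0.259, which placed them at the 64.8th and 42.3rd percentiles. MSLN had 1.11 ± 0.145 RPKM, at the 24.1st percentile, and WT1 0.0576 ± 0.0112 RPKM, at the 1.78th percentile. The ranges of neighbors in this order did not overlap between control libraries. Without division by length MUC16, the longest of these genes at 43830 bases of exons, ranked 2nd instead of 7th. With knockdown, WFDC2 reached 94.2 ± 15 RPKM with shMPZL3 #1 and 106 ± 11.6 with shMPZL3 #2, the range of SOX17, which had 99.3 ± 18.4 and 98.1 ± 13.5. MUC1 reached 7.83 ± 1.49 and 8.73 ± 1.75 RPKM, beside 5.61 ± 1.63 and 7.24 ± 0.946 for MUC16. These are descriptions of levels, and the genes were not tested against each other.

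**Figure D1:**
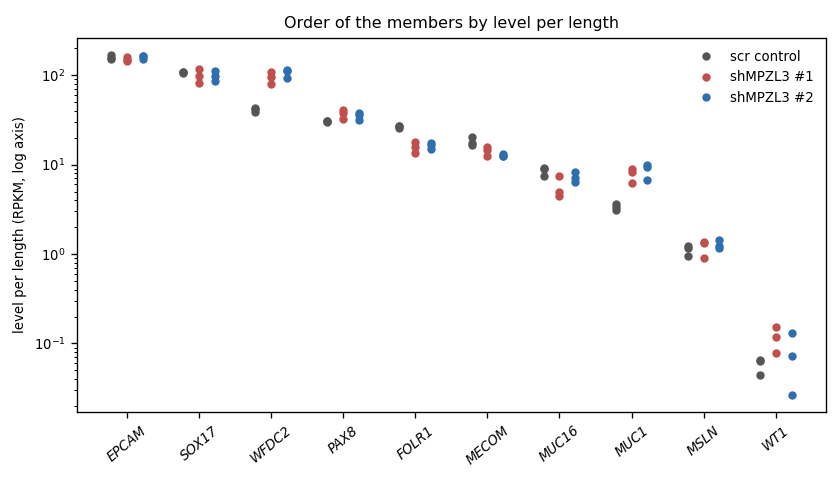
Level per length (RPKM, log axis) of the 10 members, 1 point per library, 3 libraries per group, ordered by the scr control mean. EPCAM at 160 RPKM is highest and WT1 at 0.0576 RPKM lowest in scr control, and WFDC2 and MUC1 sit higher in both knockdown groups than in scr control.

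When both shRNAs were grouped, 6 libraries against 3, 2 of the 9 tested members were higher and 2 lower at an adjusted p under 0.05 (edgeR quasi-likelihood test, adjusted over all genes tested). Of all genes tested, 9.36% were called higher and 6.4% lower. With shMPZL3 #1, 3 members were higher and 3 lower, where 16.8% of all genes were called higher and 15.3% lower. With shMPZL3 #2, 2 members were higher and 2 lower, where the shares of all genes were 9.36% and 5.8%. No member was called between shMPZL3 #2 and shMPZL3 #1 by edgeR or by DESeq2, where edgeR called 15.1% of all genes in either direction. Before adjustment 1 member, MUC16, was under the threshold of 0.05. The median log2 fold change of the 9 members was -0.04 in the grouped comparison, against 0.02 for all genes tested. All 6 knockdown libraries lay above all 3 controls for 3 members, as for 11.8% of all genes tested, and below them for 2 members, as for 11% of all genes. The comparisons with scr control share the same 3 control libraries, so the shRNAs are not independent in that respect. A two-sided exact permutation test on the log2 CPM of a gene could give no p below 0.0119 for 6 libraries against 3, or below 0.1 for 3 against 3.

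**Figure D2:**
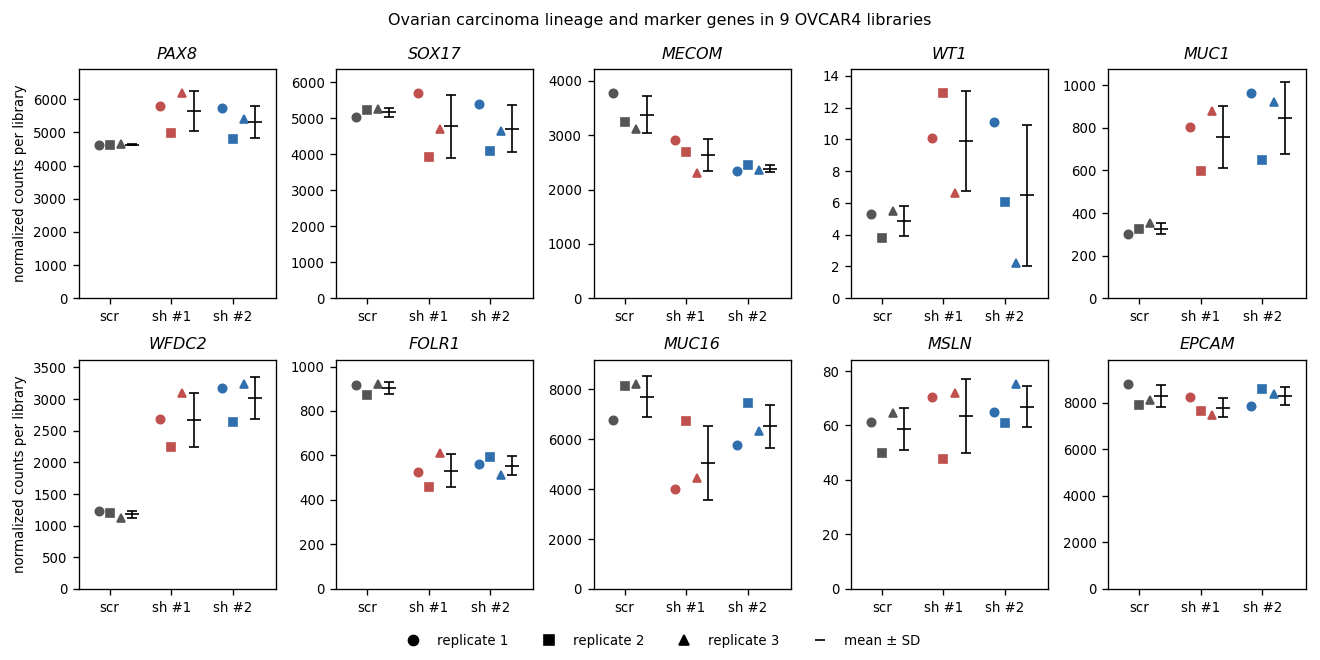
Normalized counts of the 10 members in each of the 9 libraries (linear axes from 0), with symbols for the replicate number and bars for mean ± SD of 3 libraries. WFDC2 and MUC1 lie above, and FOLR1 and MECOM below, their scr control values in all 6 knockdown libraries.

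**Figure D3:**
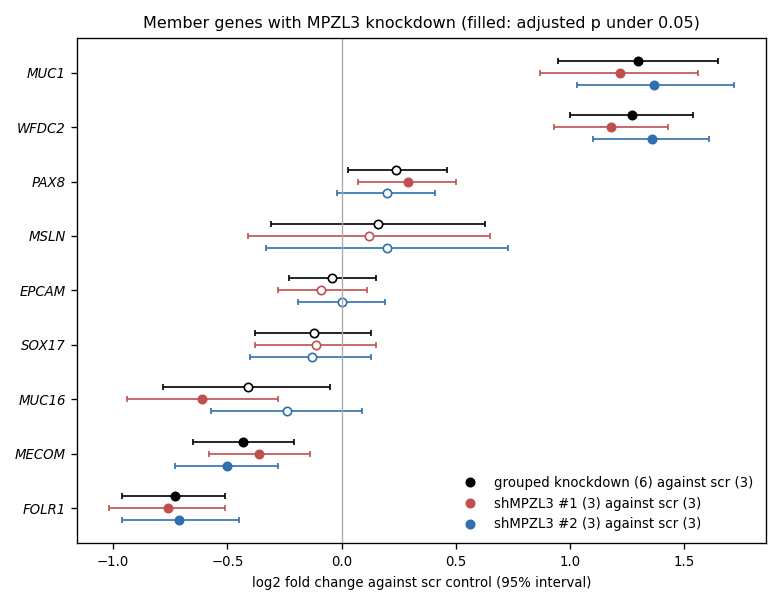
Log2 fold changes of the 9 tested members against scr control with 95% intervals, for both shRNAs grouped and for each shRNA, filled where the adjusted p is under 0.05. MUC1 and WFDC2 lie near 1.3 and FOLR1 near -0.73, while the intervals of EPCAM, MSLN and SOX17 cover 0.

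Among the transcription factors, MECOM (ENSG00000085276, chromosome 3 from 169083499 to 169663618, minus strand, hg38) was the member called lower. Its normalized counts were 3772, 3253 and 3124 in scr control, 2908, 2688 and 2311 with shMPZL3 #1, and 2344, 2461 and 2356 with shMPZL3 #2. All knockdown libraries were below all controls, and the highest value of all was scr control replicate 1. The grouped log2 fold change was -0.43 (SE 0.10, adjusted p = 0.0156), and those of the shRNAs were -0.36 (adjusted p = 0.0153) and -0.50 (adjusted p = 0.00385). The grouped test was no longer passed once either scr control replicate 1 (adjusted p = 0.116) or the control replicate numbered 2 (adjusted p = 0.0556) was left out. That of shMPZL3 #1 was not passed in the absence of scr control replicate 1 (adjusted p = 0.0903) or shMPZL3 #1 replicate 3 (adjusted p = 0.0768). The grouped value corrected for GC content and length was -0.42 (adjusted p = 0.00993). The pseudogene RPL22P1 lies within MECOM without sharing exon bases and had 2543 counts over all libraries, beside 24760 for MECOM.

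PAX8 (ENSG00000125618, chromosome 2 from 113215997 to 113278950, minus strand) varied least of the members over the 3 control libraries, with 4605, 4630 and 4648 normalized counts. The coefficient of variation was 0.475%, below what counting error alone would give on average at 3381 to 4909 counts. It is thus a loose estimate from 3 libraries and too small for the true spread. The value was 10.8% with shMPZL3 #1 and 8.81% with shMPZL3 #2. PAX8 had 5781, 4978 and 6174 normalized counts with shMPZL3 #1, and 5722, 4802 and 5413 with shMPZL3 #2. All knockdown libraries were above all controls, and the lowest library of each shRNA was replicate 2. The grouped log2 fold change of 0.24 (SE 0.10) did not pass the adjustment (adjusted p = 0.111; exact permutation p = 0.0357). With shMPZL3 #1 PAX8 was called higher, at a log2 fold change of 0.29 (SE 0.10, adjusted p = 0.0406), and with shMPZL3 #2 the value was 0.20 (adjusted p = 0.207). The shMPZL3 #1 call was lost in 5 of the 9 fits that left out 1 library, namely any of the 3 controls or replicate 1 or 3 of shMPZL3 #1 (adjusted p = 0.0573 to 0.156). The difference of shMPZL3 #2 minus shMPZL3 #1 was -0.09 with a 95% interval of -0.30 to 0.13.

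Among the knockdown libraries, the replicates numbered 2 were lowest in PAX8 and also lowest in GC balance. PAX8 has 57% GC in its longest transcript, at the 76.5th percentile of the genes tested. After the correction for GC content and length, its log2 fold change with shMPZL3 #1 was 0.21 (SE 0.07, adjusted p = 0.0215) and the grouped value 0.16 (adjusted p = 0.119). The libraries keep no strand, and the antisense gene PAX8-AS1 shares 685 exon bases with PAX8, so reads there cannot be told apart. PAX8-AS1 had 5462 counts over all libraries, beside 47194 for PAX8.

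SOX17 (ENSG00000164736, chromosome 8 from 54457935 to 54460888, plus strand) had 5027, 5232 and 5257 normalized counts in scr control. It had 5697, 3934 and 4702 with shMPZL3 #1, and 5398, 4102 and 4660 with shMPZL3 #2. The knockdown libraries spread on both sides of the controls, and replicate 2 was again the lowest with each shRNA. The grouped log2 fold change was -0.12, with a 95% interval of -0.38 to 0.13 (adjusted p = 0.517). The corrected value was -0.20 (SE 0.09, adjusted p = 0.148).

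WT1 (ENSG00000184937, chromosome 11 from 32387775 to 32435630, minus strand) had 4 counts in each scr control library. It had 11, 13 and 7 counts with shMPZL3 #1 and 11, 6 and 3 with shMPZL3 #2. These counts are too few for a comparison at this depth. Without the filter, the grouped log2 fold change was 0.74 with SE 0.78 (adjusted p = 0.614). The near absence of WT1 mRNA stands apart from the serous label of the line, while PAX8, SOX17 and EPCAM were high. WT1-AS, on the opposite strand, shares 113 exon bases with WT1 and had 11 counts over all libraries.

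MUC1 (ENSG00000185499, chromosome 1 from 155185824 to 155192916, minus strand) rose with both shRNAs. It had 301, 327 and 351 normalized counts in scr control, 802, 597 and 877 with shMPZL3 #1, and 962, 651 and 923 with shMPZL3 #2. The lowest knockdown library was well above the highest control. The grouped log2 fold change was 1.30 (SE 0.16, adjusted p = 0.000473), a 2.46-fold rise, and it was 1.22 (adjusted p = 4.94e-05) and 1.37 (adjusted p = 2.85e-05) with the shRNAs. Leaving out any 1 library kept the grouped value between 1.23 and 1.37. MUC1 is among the most GC-rich genes tested, with 71.2% GC at the 99.7th percentile, and the corrected grouped value was 1.14 (SE 0.11, adjusted p = 0.000165).

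WFDC2 (ENSG00000101443, chromosome 20 from 45469706 to 45481532, plus strand) rose by nearly the same factor from a higher level per length. Its normalized counts were 1225, 1202 and 1114 in scr control, 2693, 2239 and 3090 with shMPZL3 #1, and 3178, 2641 and 3237 with shMPZL3 #2. Again no knockdown library came near the controls. The grouped log2 fold change was 1.27 (SE 0.13, adjusted p = 0.000106), a 2.41-fold rise. The values of the shRNAs were 1.18 (adjusted p = 6.09e-06) and 1.36 (adjusted p = 1.94e-06). With 51.1% GC, WFDC2 is near the middle of the genes tested, and the corrected grouped value was 1.26.

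FOLR1 (ENSG00000110195, chromosome 11 from 72189558 to 72196323, plus strand) fell. It had 916, 874 and 921 normalized counts in scr control, 527, 460 and 609 with shMPZL3 #1, and 560, 594 and 510 with shMPZL3 #2. The groups did not overlap, and the knockdown groups covered the same range as each other. The grouped log2 fold change was -0.73 (SE 0.11, adjusted p = 0.000977), with -0.76 (adjusted p = 0.000174) and -0.71 (adjusted p = 0.000668) for the shRNAs. It was -0.77 to -0.69 when any 1 library was left out and -0.77 with the GC correction. The difference between the shRNAs was 0.06, with a 95% interval of -0.20 to 0.31.

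MUC16 (ENSG00000181143, chromosome 19 from 8848844 to 8981342, minus strand) had 6761, 8139 and 8209 normalized counts in scr control. It had 3994, 6734 and 4434 with shMPZL3 #1, and 5762, 7440 and 6347 with shMPZL3 #2. In contrast to PAX8, SOX17, MUC1 and WFDC2, replicate 2 was the highest library of each shRNA. The shMPZL3 #1 libraries were all below the controls, although replicate 2 was nearly level with scr control replicate 1. MUC16 fell with shMPZL3 #1 by 0.61 on the log2 scale (log2 fold change -0.61, SE 0.16, adjusted p = 0.00739). With shMPZL3 #2 the log2 fold change was -0.24, with a 95% interval of -0.57 to 0.09 (adjusted p = 0.33), and the grouped value was -0.41 (SE 0.17, adjusted p = 0.116).

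The difference of MUC16 between the shRNAs, 0.37 on the log2 scale with a 95% interval of 0.03 to 0.70, was not significant after adjustment (adjusted p = 0.129). It was larger and passed the test with the correction for GC content and length (0.68, SE 0.13, adjusted p = 0.00168). The same held when shMPZL3 #1 replicate 2 was left out (0.63, adjusted p = 0.00378). The corrected value with shMPZL3 #2 was 0.07 (adjusted p = 0.752), opposite in sign to the uncorrected one, while that with shMPZL3 #1 remained -0.61 (adjusted p = 0.00165). MUC16 was called lower in the grouped comparison without shMPZL3 #2 replicate 2 (adjusted p = 0.0465), with no filter on low counts (adjusted p = 0.0235) and when the shRNA effects of the 3-group fit were averaged (adjusted p = 0.0258). MUC16 has 50.3% GC, near the middle of the genes tested, and is the longest member, at 43830 bases of exons. The parts of GC content and of length in its corrected values were not tested separately.

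MSLN (ENSG00000102854, chromosome 16 from 760762 to 768865, plus strand), which encodes the partner of MUC16, was low throughout. It had 61.2, 50 and 64.6 normalized counts in scr control, 70.5, 47.7 and 71.9 with shMPZL3 #1, and 64.8, 60.9 and 75.2 with shMPZL3 #2. All groups overlapped, and the 95% interval of the grouped log2 fold change of 0.16 ran from -0.31 to 0.63 (adjusted p = 0.657). MSLN had 46 to 100 counts per library. MSLN is GC-rich, with 65.4% GC at the 96.8th percentile, and the corrected grouped value was 0.05 (SE 0.19, adjusted p = 0.882).

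EPCAM (ENSG00000119888, chromosome 2 from 47345158 to 47387601, plus strand) had 8805, 7900 and 8118 normalized counts in scr control. It had 8254, 7667 and 7461 with shMPZL3 #1, and 7850, 8607 and 8372 with shMPZL3 #2. The groups overlapped, and the grouped log2 fold change was -0.04 with a 95% interval of -0.23 to 0.15 (adjusted p = 0.785). The corrected value was -0.05 (adjusted p = 0.659). The direction with shMPZL3 #2, at a log2 fold change of 0.00, changed with the normalization, the tool, the GC correction and the library left out.

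**Figure D4:**
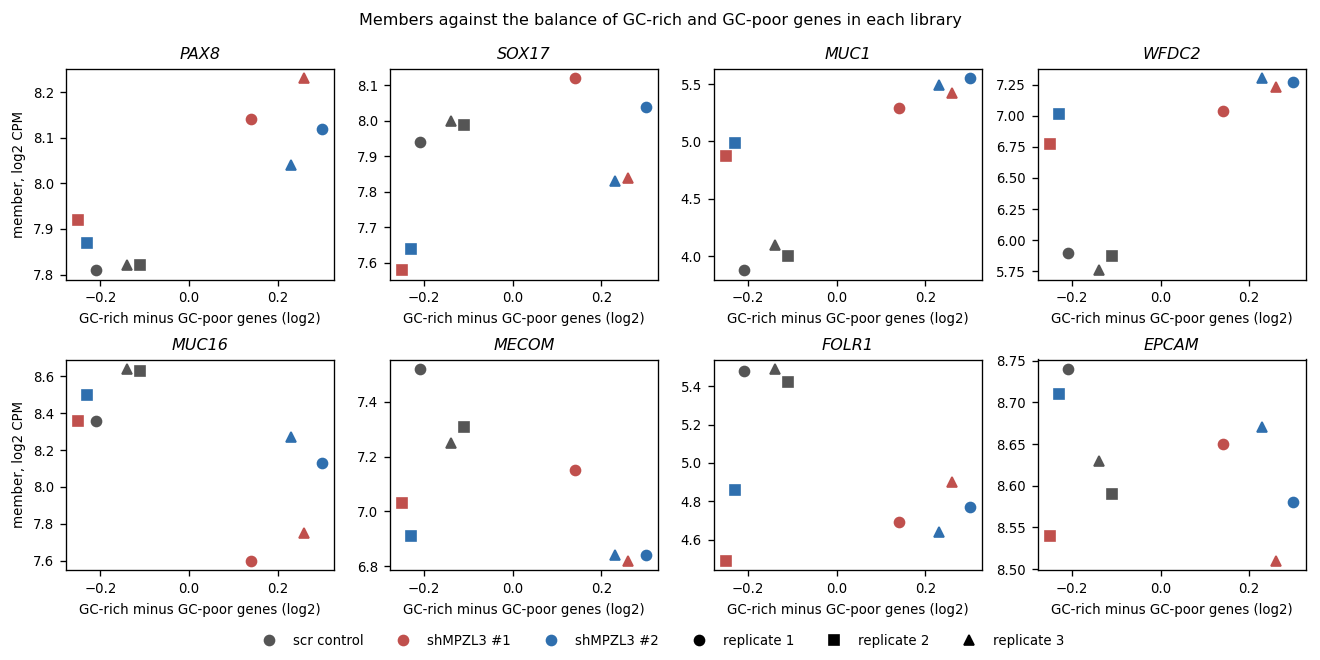
Log2 CPM of 8 members in each library (vertical axes) against the library's balance of GC-rich and GC-poor genes (log2, horizontal axes), with colors for the groups and symbols for the replicate number. Replicates numbered 2 of both shRNAs, at -0.25 and -0.23, sit beside the scr control on the horizontal axis. There PAX8, SOX17, WFDC2 and MUC1 are lowest among the knockdown libraries. In these replicates PAX8, WFDC2 and MUC1 lie above all scr control libraries, and SOX17, FOLR1 and MECOM below all of them.

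Genes whose log2 CPM over the 9 libraries was most like that of a member were found among 11916 protein-coding genes by Pearson's r, as a description, since the libraries share depth, GC balance and group, so that genes that rose or fell together with knockdown have a high r. MUC1 was most like TNKS1BP1 (r = 0.985), WFDC2 (r = 0.983) and DLGAP4 (r = 0.983). WFDC2 was most like EVI5L (r = 0.993), TMEM63B (r = 0.993) and BSDC1 (r = 0.992). PAX8 was most like PPP6R1 (r = 0.997), WIZ (r = 0.989) and SLC9A3R2 (r = 0.986). MUC16 was most like CLASP2 (r = 0.972), MAML2 (r = 0.954) and TTC5 (r = 0.950), and MECOM was most like COX6C (r = 0.980), BCAT1 (r = 0.979) and SCAI (r = 0.965). FOLR1 was most like NOP14 (r = 0.951), CBX1 (r = 0.950) and ZMIZ1 (r = 0.946). The 3 genes most like SOX17 were FOXRED2, PEPD and DDX49, those most like EPCAM were C22orf39, CCDC59 and NMT2, and those most like MSLN were CNFN, UBE2D2 and RASAL1, with r from 0.912 to 0.976.

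Genes with related roles were described by 7 lists written from general knowledge. Their counts stand beside those of all genes tested, of which 9.36% were called higher and 6.4% lower in the grouped comparison, 16.8% and 15.3% with shMPZL3 #1, and 9.36% and 5.8% with shMPZL3 #2. In the grouped comparison, 2 of 14 tested non-member genes in a list of Mullerian and other transcription factors were higher and 3 lower (median log2 fold change -0.10). With shMPZL3 #1 the counts were also 2 and 3, and with shMPZL3 #2 they were 3 and 4. BHLHE41, a circadian repressor, rose from 73.4 ± 27.8 normalized counts in the controls to 363 ± 42.7 under shMPZL3 #2 (SD, n = 3 each), a grouped log2 fold change of 2.28 (adjusted p = 0.000106). ELF3, an epithelial ETS factor, rose by 0.67. The homeobox factors LHX1 (-1.17, adjusted p = 0.0069), MEIS1 (-0.62, adjusted p = 0.00565), a cofactor of HOX proteins, and EMX2 (-0.57, adjusted p = 0.014) fell. EMX2 went from 1362 ± 29.8 normalized counts in the controls to 998 ± 131 under shMPZL3 #1 and 831 ± 169 under shMPZL3 #2.

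Of 30 tested markers of serous carcinoma other than the members, 9 were higher and 2 lower, with a median of 0.19. With shMPZL3 #1, 14 were higher and 3 lower (median 0.34), and with shMPZL3 #2, 6 were higher and 4 lower (median 0.10). LCN2, a secreted siderophore-binding protein, had a log2 fold change of 1.59 (adjusted p = 0.00368) with a wide range of 428 to 1536 normalized counts in the controls. L1CAM, an adhesion molecule, had 1.04 (adjusted p = 0.000473), and TPBG, the oncofetal antigen 5T4, had 0.97 (adjusted p = 0.000292). CDH6, a cadherin of the same lineage, fell from 11791 ± 1137 to 6596 ± 93.9 normalized counts with shMPZL3 #2 (grouped log2 fold change -0.78, adjusted p = 0.000474), and BCAM, a laminin receptor, fell by 0.64 (adjusted p = 0.0232).

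Around the mucins, 5 of 18 tested enzymes of mucin O-glycosylation were higher and none was lower, with a median of 0.06. GCNT3, which makes core 2 and core 4 branches, had a log2 fold change of 2.36 (adjusted p = 0.00113) from a low control level of 38.9 ± 15.6 normalized counts. The sialyltransferases ST3GAL1 and ST6GALNAC2 had 0.84 (adjusted p = 0.00856) and 0.68 (adjusted p = 0.013). With shMPZL3 #1, 6 enzymes were higher and 0 lower, and with shMPZL3 #2, 4 were higher and 2 lower. Of 11 proteases and binding partners of the marker proteins, 3 were higher: FURIN, a proprotein convertase, at 0.64 (adjusted p = 0.0133), the hyaluronan receptor CD44 at 0.52 (adjusted p = 0.0453), and the MUC1-binding lectin LGALS3 at 0.45 (adjusted p = 0.0301). With shMPZL3 #1, 3 of the 11 were higher and 0 lower, and with shMPZL3 #2, 2 were higher and 1 lower. By edgeR, CD44 was not called with shMPZL3 #1 (adjusted p = 0.0725), nor LGALS3 with shMPZL3 #2 (adjusted p = 0.08). Of 15 other mucins, 4 passed the filter and MUC3A was called, at 1.44 (adjusted p = 0.0245) from 33.1 ± 22.4 normalized counts in scr control.

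Of 10 tested genes of folate uptake and use, 2 were lower and none higher in the grouped comparison, with a median of -0.13. GGH and TYMS, which act in folate hydrolysis and thymidylate synthesis, had log2 fold changes of -0.60 and -0.55 (adjusted p = 0.0131 and 0.0299). With shMPZL3 #1, 6 of the 10 were lower (median -0.49), and with shMPZL3 #2, 1 was lower (median 0.15). Of 14 other genes with WAP domains, the fold that WFDC2 carries, 3 passed the filter and 2 were higher. These were the protease inhibitors PI3 at 1.84 (adjusted p = 0.0198) and SLPI at 0.45 (adjusted p = 0.046), the latter also in the list of serous markers.

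Many of these grouped calls rest on all 3 controls. Of the 25 called genes named from these lists and from the marker lists, 6 kept an adjusted p under 0.05 without scr control replicate 1, namely BHLHE41, CDH6, GCNT3, L1CAM, LCN2 and TPBG. Without scr control replicate 2 there were 12, and without replicate 3 there were 14. SLPI lost the call with the replicate block (adjusted p = 0.074). SLPI and CD44 each lost it in 4 of the 6 fits without 1 knockdown library, POU5F1 in 2, and LGALS3 and TYMS in 1 each. All 25 kept it with the GC correction.

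**Figure D5:**
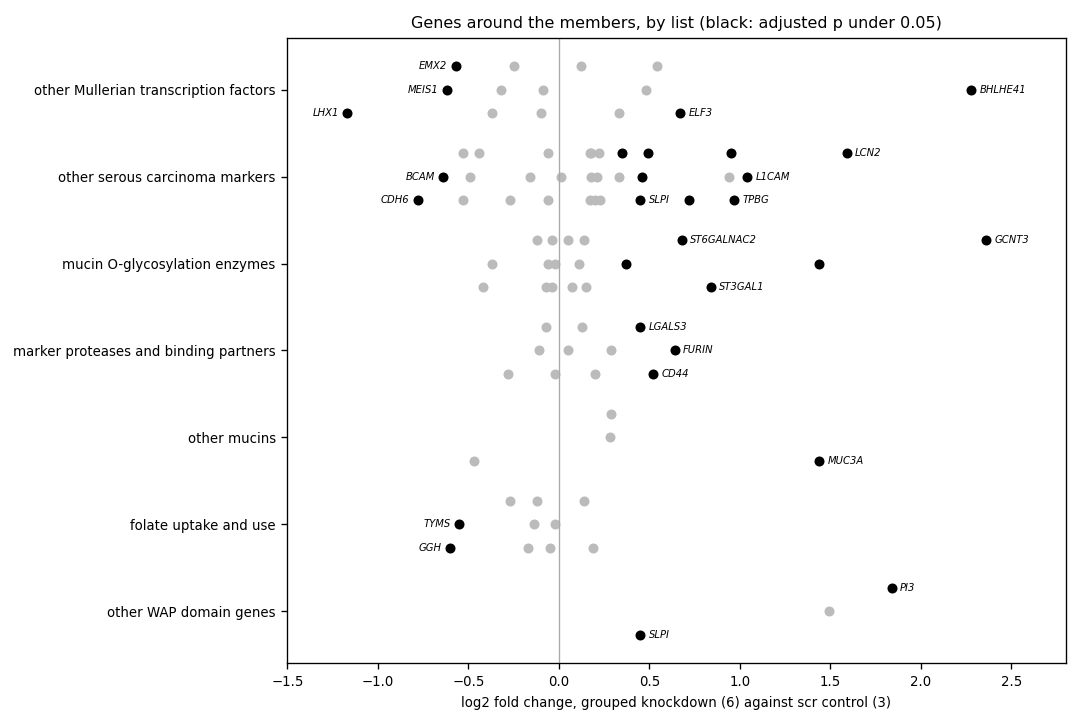
Grouped log2 fold change of each tested gene of the 7 lists around the members, black where the adjusted p is under 0.05. The 2 farthest to the right are GCNT3 at 2.36 and BHLHE41 at 2.28, and the farthest to the left is LHX1 at -1.17.

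Markers of other cell types were summed in each library. The 7 epithelial markers summed to 105023 to 111425 normalized counts per control library, 110706 to 142150 (shMPZL3 #1) and 105894 to 139510 (shMPZL3 #2). None was called in the grouped comparison, where KRT7 had a log2 fold change of 0.33 (adjusted p = 0.069), and 3 were higher with shMPZL3 #1. Of 7 fibroblast markers, 3 passed the filter, and all 7 summed to 379 to 465 in scr control, 864 to 1268 with shMPZL3 #1 and 697 to 779 with shMPZL3 #2. COL1A1 (log2 fold change 1.05, adjusted p = 0.015) and LUM (1.15, adjusted p = 0.02) were higher, while DCN had no count in any library and PDGFRA at most 3. The part of these markers in the members' changes was not tested. The 6 mesothelial markers, 3 of which passed the filter, summed to 2710 to 2877 normalized counts per control library, 1887 to 2676 (shMPZL3 #1) and 2520 to 3850 (shMPZL3 #2), mostly UPK3B, and none was called in the grouped comparison. Of 8 markers of ciliated cells, 3 passed the filter, and all 8 summed to 574 to 629 in scr control, 515 to 672 with shMPZL3 #1 and 263 to 318 with shMPZL3 #2. Most of this was CAPS, which was lower with shMPZL3 #2 (log2 fold change -1.10, adjusted p = 5.17e-05). TPPP3, named here after its values were seen, had 0.943 to 1.37 normalized counts in scr control and at most 13.7 with knockdown. At these levels it could pass the filter on low counts only through knockdown libraries, so its grouped call (edgeR adjusted p = 0.0293) decides nothing about a rise. FOXJ1 had at most 11 counts in any library and C20orf85 had 0. Leukocyte markers summed to at most 97.4 normalized counts in any library, and endothelial markers to 168 to 208 in scr control and at most 332 with knockdown. As the source is 1 cell line, these sums describe expression in OVCAR4 cultures and are not numbers of cells of other types. Whether more OVCAR4 cells or more RNA per cell carried a change cannot be told from them.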

How the data were processed

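The authors aligned poly-A selected, non-directional Illumina NovaSeq reads to hg38 with HISAT2 2.0.5 and deposited featureCounts 1.5.0-p3 raw counts per gene with gene lengths, unnormalized and unpooled, per the submitters' processing notes. The annotation is not given in the sources used here. All 58735 genes matched GENCODE release 29. Groups came from the labels. The members and lists were chosen with earlier results of these data known, and some genes of the lists are not reported here.

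Genes passing filterByExpr (16928) were tested with edgeR 4.0.16 (R 4.3.3), TMM scaling and the quasi-likelihood test with Benjamini-Hochberg adjustment over all of them: 1 fit of knockdown against control and 1 fit of the 3 groups for each shRNA. Log2 CPM used a prior count of 2. RPKM used the deposited lengths. Genes called in the grouped comparison were named from each list, up to 3 per direction, by fold change at an average log2 CPM of at least 1; where none was called, the 2 highest.

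Alternatives were RLE and upper-quartile scaling, DESeq2 1.42.0, no filter, at least 10 counts in every library, a replicate block, the mean of the shRNAs in the fit of the 3 groups, leaving out each library and, chosen after seeing the data, an offset for GC content and length of the longest transcript, available for 99.9% of tested genes. The fits were tested on simulated data. Between 2 replicates of a group the chi-square per gene was 3.08 to 23.2, so none were alike within sampling noise. Counting error matters most for WT1 and MSLN, the members with fewest reads.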

Additional observations from a re-analysis of the deposited data

Results flagged for a closer look

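The effects of the shRNAs were compared directly for every tested member and every gene named from the lists. Of these, 8 differed between shMPZL3 #2 and shMPZL3 #1 at an adjusted p under 0.05 (edgeR), where 15.1% of all genes tested were called. No member is among them. The following values are log2 differences of shMPZL3 #2 minus shMPZL3 #1. PI3 differed by 1.43 (adjusted p = 0.0012), with a log2 fold change against scr control of 0.95 for shMPZL3 #1 and 2.38 for shMPZL3 #2. The endothelial marker CDH5 differed by 1.39 (adjusted p = 0.000395), and the ciliated cell marker CAPS by -1.07 (adjusted p = 9.23e-05), with almost no change for shMPZL3 #1 (-0.03). COL1A1 differed by -0.75 (adjusted p = 0.00678) and LHX1 by -0.73 (adjusted p = 0.0342). UPK3B differed by 0.60 (adjusted p = 0.017), from -0.46 with shMPZL3 #1 to 0.14 with shMPZL3 #2. FURIN differed by -0.45 (adjusted p = 0.0092) and TYMS by 0.44 (adjusted p = 0.0314). MPZL3 itself was reduced less by shMPZL3 #2, and whether the level of MPZL3 has a part in these differences was not tested.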

How the results depend on the processing

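MUC1, WFDC2 and FOLR1 kept direction and call against scr control, grouped and for each shRNA, in every alternative run, and MECOM and PAX8 kept direction. With any 1 library left out, the grouped count was 453 to 1737 genes higher and 172 to 1450 lower, against 1584 and 1083 with all, the lowest without scr control replicate 1. For shMPZL3 #1 it was 1994 to 2992 higher (lowest without scr control replicate 1) and 1689 to 2824 lower (without shMPZL3 #1 replicate 3). For shMPZL3 #2 it was 910 to 1732 higher (lowest without scr control replicate 1) and 354 to 1388 lower (without shMPZL3 #2 replicate 3). Between the shRNAs it was 667 to 1521 higher (lowest without shMPZL3 #2 replicate 3) and 798 to 1432 lower (without shMPZL3 #1 replicate 3). Members called lower in the grouped comparison numbered 1 to 3, and members higher in shMPZL3 #2 against shMPZL3 #1 numbered 0 to 1. The mean of the shRNAs in the fit of 3 groups called 2479 genes higher and 2198 lower in the grouped comparison.

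Same-numbered libraries were not paired by the labels. Between the shRNAs their deviations correlated at 0.0966 to 0.218, against -0.147 to 0.00376 for differently numbered pairs. There every library was most like its own number. With scr control, same-numbered pairs had -0.00143 to 0.111, and not every library was most like its own number. The main fits hold no term for the replicate number. With the replicate block, 1597 genes were lower with shMPZL3 #2 (982 without), and 2015 were higher between the shRNAs (1279 without), MUC16 being the 1 member called (adjusted p = 0.00672). The GC correction called 2101 genes higher between the shRNAs, with 1 member, MUC16, and no filter also called this 1 member (adjusted p = 0.0126).

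Among the members, directions turned only for values that had not passed the test with all libraries. EPCAM with shMPZL3 #2 was -0.00 with RLE and with DESeq2, -0.03 with the GC correction, and -0.03 to 0.04 with 1 library left out, below 0 without scr control replicate 2 (-0.03) or 3 (-0.02) or shMPZL3 #2 replicate 2 (-0.03). MUC16 with shMPZL3 #2 was 0.07 with the GC correction. SOX17 with shMPZL3 #1 ranged from -0.24 to 0.01, the latter without shMPZL3 #1 replicate 2. Between the shRNAs, with 1 library left out, SOX17 ranged from -0.14 to 0.12, MSLN from -0.08 to 0.18 and FOLR1 from -0.04 to 0.17. SOX17 was 0.12 and 0.08 without shMPZL3 #1 replicate 1 or shMPZL3 #2 replicate 2, MSLN -0.08 and -0.02 without shMPZL3 #1 replicate 2 or shMPZL3 #2 replicate 3, and FOLR1 -0.04 and -0.00 without shMPZL3 #1 replicate 2 or with the GC correction. The cause was not tested.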

Other observations

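Among the genes of the lists, 32 differed between shMPZL3 #2 and shMPZL3 #1 (edgeR, adjusted p under 0.05), where 15.1% of all genes tested were called. Of 14 Mullerian and other transcription factors tested, 2 were higher and 1 lower with shMPZL3 #2, and of 30 serous markers 3 and 6. The counts were 1 and 4 of 18 O-glycosylation enzymes, 1 and 1 of 11 proteases and partners, and 0 and 1 of 4 mucins. For folate genes they were 4 and 0 of 10, and for WAP genes 1 and 0 of 3. In the marker lists they were 0 and 1 of 7 (epithelial), 1 and 1 of 3 (mesothelial) and 0 and 2 of 3 (fibroblast). They were 1 and 0 of 3 (endothelial), 0 and 0 of 3 (leukocyte), 0 and 1 of 3 (ciliated) and 1 and 0 of 8 (other tumor types). A gene held by more than 1 list counts in each. The genes below were chosen from the 32 after their values were seen. The mitochondrial folate enzymes MTHFD2 and SHMT2 were lower with shMPZL3 #1 than with shMPZL3 #2. MTHFD2 had 2738 to 3109 normalized counts in the controls, 1301 to 1638 with shMPZL3 #1 and 2781 to 3554 with shMPZL3 #2 (log2 difference of shMPZL3 #2 minus shMPZL3 #1, 1.09, SE 0.12, adjusted p = 1.84e-05). SHMT2 had 1182 to 1299, 687 to 947 and 1229 to 1536 (0.75, adjusted p = 0.000694). The serous marker VTCN1, the surface protein B7-H4, had 5058 to 5484 in scr control, 5269 to 5867 with shMPZL3 #1 and 2954 to 3633 with shMPZL3 #2 (-0.73, adjusted p = 0.000128). The kallikrein KLK5 had 229 to 323, 550 to 1000 and 265 to 359 (-1.27, adjusted p = 0.000316). The membrane mucin MUC20 had 461 to 542, 700 to 801 and 424 to 497 (-0.65, adjusted p = 0.00141), and GALNT1, an enzyme that starts mucin O-glycans, had 1090 to 1258, 1466 to 1951 and 822 to 1048 (-0.79, adjusted p = 0.000488).

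Markers of other ovarian tumor types were mostly low. POU5F1 was called higher in the grouped comparison, at a log2 fold change of 0.56 (adjusted p = 0.0374), with 265 to 399 normalized counts in scr control, while NANOG had at most 2 counts and SALL4 42.6 to 104 normalized counts in scr control. CD14, a monocyte marker, had 3.99 to 11.3 normalized counts in scr control and 18.3 to 32.2 with knockdown across both shRNAs (log2 fold change 1.60, adjusted p = 0.0237), while CD68 and LYZ had at most 1 count in any library. With as few as 3 counts in a control library, CD14 could not pass the filter on its controls alone, so the call decides little. It was not tested when at least 10 counts were required in every library.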
